A study of Homo sapiens with 12 samples.

Results

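The comparison described here sets HCT116 TIM-mAID cells that lost TIMELESS and had ATR inhibited at the same time against cells given the vehicle. HCT116 is a human colorectal carcinoma line, and in TIM-mAID cells a CRISPR knock-in adds an auxin-inducible degron (mAID) to TIMELESS. Members were chosen by the treatment named in the labels: 3 libraries labelled 5-Ph-IAA/ATRi, called the combination below, and 3 labelled DMSO, together 6 of the 12 libraries of the series. Combination cells received 1 µM 5-Ph-IAA, an auxin analogue that directs degron-tagged proteins to a ubiquitin ligase, and 1 µM ceralasertib, an inhibitor of the ATR kinase (ATRi), and DMSO cells the solvent of both compounds. All libraries were taken at 40 h, per the sample titles, and the series' design text calls libraries that share a treatment biological replicates. The remaining 6 libraries, 3 with 5-Ph-IAA alone and 3 with ATRi alone, entered the fit and are used where levels are set side by side. Every library, the DMSO ones included, comes from the tagged line, so cells with untagged TIMELESS are not part of the comparison. Whether the line is 1 clone is not given in the sources used here.

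TIMELESS forms, with TIPIN, the fork protection complex that travels with the replisome, keeps helicase and polymerases together and helps pass signals from stalled forks to CHK1. ATR is the kinase that senses single-stranded DNA at such forks, restrains further origin firing, and blocks entry into mitosis. When forks break, other kinases, among them ATM and DNA-PKcs, stabilise p53, which raises the genes of arrest, repair and cell death. p53 also acts through p21 on the DREAM repressor complex, which binds E2F and CHR promoter elements of cell cycle genes. The title of the series names DNA-PKcs, JNK and p53 beside cell fate in replication catastrophe.

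Poly(A) RNA was sequenced, and the deposited values are estimated counts per gene. Totals were 28.1 to 28.5 M counts (M, 1e6) with the combination and 29.9 to 34.2 M counts with DMSO. DMSO 2 and DMSO 3 stood apart from each other: on the second principal component of the 6 libraries, which held 36.3% of the variance, they scored 63.8 and -62.2. RRM2, of nucleotide synthesis, was at 87.4 CPM in DMSO 2 and at 250 and 337 CPM in DMSO 1 and 3, and the stress gene ATF3 at 56.1 CPM in DMSO 2 and at 19.8 and 18 CPM in DMSO 1 and 3. CPM are TMM-scaled counts per M counts of a library, and levels are given as mean ± SD with n = 3. Of the epithelial markers, EPCAM, CDH1, KRT8, KRT18, KRT19 and CDX2 were present in every library, while VIL1 and CDH17 had 86 and 28 counts over all 12 libraries. Of 16 markers of blood, endothelial, stromal, liver and neural cells 6 were expressed enough to be tested. In counts per M counts without TMM scaling, all 16 summed to 49.9 to 75.3 with the combination and 40.1 to 107 with DMSO. Most of this sum was COL1A1.

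The degron acts on the TIMELESS protein, so RNA cannot show whether it was lost. TIMELESS RNA was at 17.6, 24.5 and 24.5 CPM with the combination, against 52.2, 30.5 and 67.9 CPM with DMSO. The log2 fold change was -1.18 ± 0.30 (SE; edgeR adjusted p = 0.023), and it no longer passed when DMSO 1, DMSO 3 or any combination library was left out. ATR RNA (log2 fold change -0.13 ± 0.11) and TIPIN RNA (-0.23 ± 0.22) did not pass the test.

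Of 18049 genes tested, 13.1% were called at an edgeR adjusted p under 0.05, 6.24% higher and 6.89% lower with the combination. The 1126 genes called higher had a median log2 fold change of 0.94 and the 1244 called lower one of -0.93, and 169 of the higher and 152 of the lower genes changed at least 4-fold. The median over all genes was -0.02. Counts of calls depended on the libraries: without combination 1, 2 or 3 there were 670, 667 and 643 higher and 678, 696 and 662 lower genes, and without DMSO 1 there were 570 higher and 666 lower. In all 6 refits that leave out a library, 477 genes were called higher and 543 lower. Each gene called higher or lower below held in all 6 of these refits, unless a library is named beside it. Groups whose 3 libraries did not overlap made up 16.4% of all genes for higher and 15.9% for lower values.

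**Figure D1:**
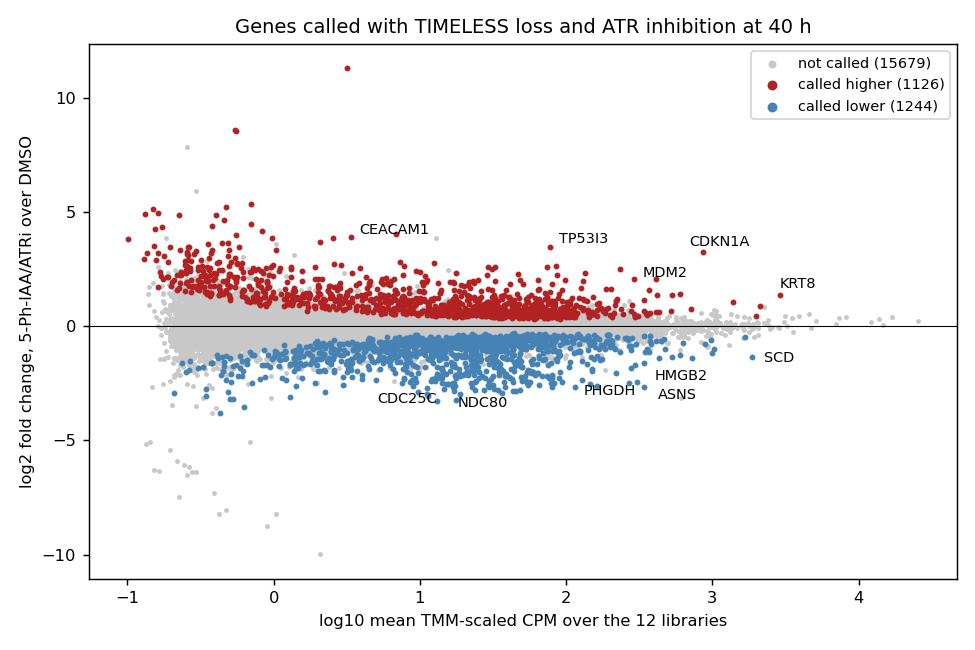
Log2 fold change of the combination over DMSO (vertical axis) against the log10 mean CPM over the 12 libraries (horizontal axis) for the 18049 genes tested. Red points are the 1126 genes called higher, blue points the 1244 called lower and grey points the genes not called; CDKN1A, at 3.24, stands far above other genes of its level.

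Most tested p53 targets rose. Over 4 lists of p53 targets, for arrest, cell death, metabolism and repair, 37 of 54 tested members were called higher and 3 lower, with a median log2 fold change of 1.19. Of 12 p53-responsive long noncoding RNAs 6 were tested and 2 of these were called higher. CDKN1A, which encodes the CDK inhibitor p21, had 2026, 2112 and 2048 CPM with the combination, against 231, 189 and 234 CPM with DMSO (log2 fold change 3.24 ± 0.19, edgeR adjusted p = 6.2e-06). The groups lay far apart and the combination libraries were close to each other. SFN, the 14-3-3 sigma protein that keeps CDK1 in the cytoplasm, averaged 793 ± 67 CPM with the combination and 191 ± 41.2 CPM with DMSO. BTG2 (log2 fold change 2.58 ± 0.24), an antiproliferative cofactor, and MDM2 (2.05 ± 0.22), the ligase that degrades p53, rose as well.

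Within the p53 targets of cell death, 9 of 15 were called higher. TP53I3, an oxidoreductase linked to reactive oxygen, had 201, 247 and 191 CPM with the combination, against 18.7, 25 and 13.8 CPM with DMSO (log2 fold change 3.47 ± 0.23). TNFRSF10C, a decoy receptor for TRAIL that lacks a death domain, rose 7.01-fold, to 15.8 ± 4.05 CPM against 2.25 ± 0.308 CPM with DMSO. TRIAP1, which restrains apoptosome formation, rose by 1.46 ± 0.11 on the log2 scale. FAS and BAX, which promote cell death, rose by 2.26 ± 0.24 and 1.40 ± 0.16. The risen members thus include antagonists as well as inducers of death. Of the 15 members 6 did not pass, among them BBC3 (log2 fold change 0.62 ± 0.30, edgeR adjusted p = 0.21). PMAIP1, the BH3-only protein NOXA, had a log2 fold change of 1.03 ± 0.26 (edgeR adjusted p = 0.023; the call was lost without combination 2 or 3 or DMSO 1 or 3).

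Metabolic and repair targets of p53 were among the genes that rose. Of 18 metabolic targets 12 were called higher and 2 lower (1 lower without any library but DMSO 2). FDXR, the mitochondrial ferredoxin reductase, had 477, 567 and 467 CPM with the combination, against 92.6, 84.4 and 88.0 CPM with DMSO, a log2 fold change of 2.51 ± 0.12 and no overlap. PHLDA3, which competes with AKT for membrane lipids, rose by 2.0 ± 0.12. SLC7A11, the cystine transporter that p53 is known to repress, fell by 2.48 on the log2 scale (± 0.46). It is also a member of the ATF4 and NRF2 lists given below, and the cause of its fall was not tested. Of the nucleotide excision and translesion genes on the p53 lists, XPC (log2 fold change 1.5 ± 0.15), POLH (1.85 ± 0.22) and DDB2 (1.22 ± 0.21) rose. PURPL, a long noncoding RNA known as a p53 target, had 20, 16.4 and 22 CPM with the combination, against 1.36, 1.30 and 0.907 CPM with DMSO (log2 fold change 4.03 ± 0.31).

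The FDXR promoter is shown because it holds a p53 half-site, the 10-base unit of which p53 binds pairs, close to the start site. The window runs from 250 bases before to 50 after the RefSeq start on GRCh38.p14 (chr17:74872945-74873244, minus strand), 5′ to 3′, with the match in capitals.
FDXR: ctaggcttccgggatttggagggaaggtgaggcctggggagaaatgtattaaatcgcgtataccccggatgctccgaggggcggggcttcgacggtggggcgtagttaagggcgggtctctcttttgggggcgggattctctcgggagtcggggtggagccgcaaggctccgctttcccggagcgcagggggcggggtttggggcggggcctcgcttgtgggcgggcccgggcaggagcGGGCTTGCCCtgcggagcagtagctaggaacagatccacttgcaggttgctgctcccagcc
A half-site was found on either strand in 4 of 15 windows of the metabolic p53 list (26.7%) and in 5.37% of 12037 windows of tested genes. The other p53 lists had a half-site in 1 of 12 windows for arrest (8.33%), 1 of 11 for cell death (9.09%) and 1 of 6 for repair (16.7%). For the long noncoding RNAs it was 0 of 3. A half-site was in 6.33% of the windows of genes called higher and in 4.78% of those called lower. A match describes these letters and is not shown to be a bound site.

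**Figure D2:**
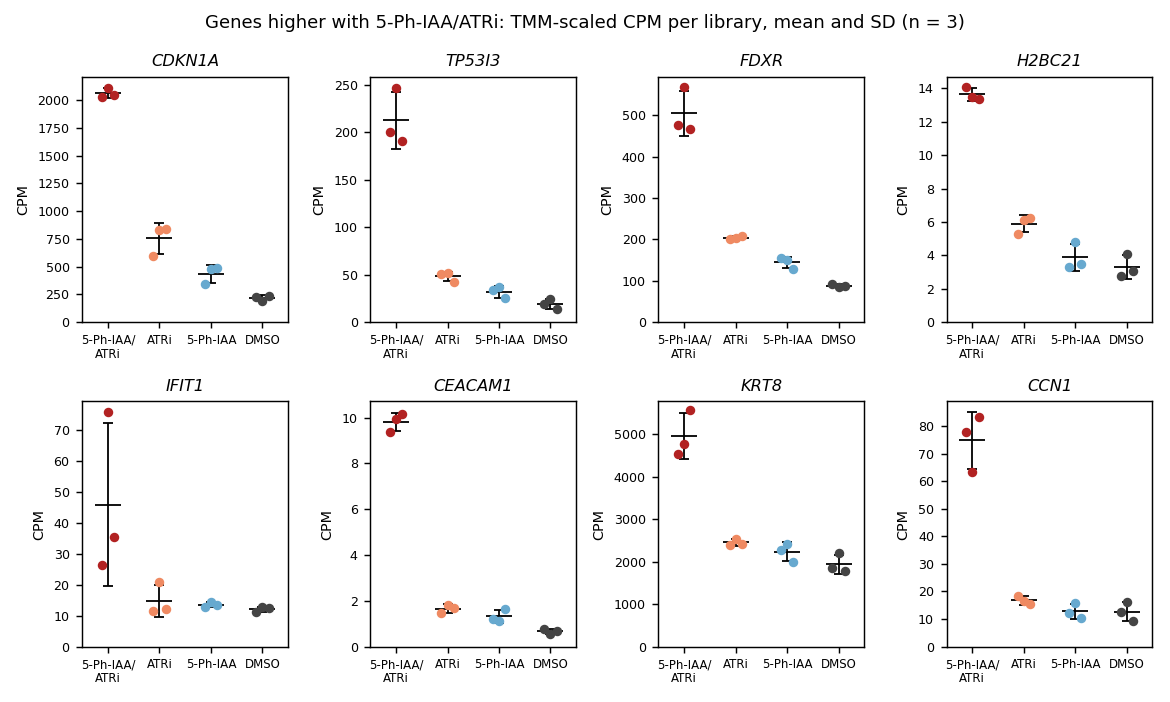
TMM-scaled CPM of 8 genes called higher (vertical axes, each from 0) in the 4 groups, with a point for each library and the mean ± SD as a bar (n = 3). In each panel the combination libraries lie above all DMSO libraries; IFIT1, shown after its values were seen, ranges from 26.5 to 76.0 CPM with the combination.

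Most genes of mitosis fell. In 3 lists of mitotic entry, kinetochore and spindle genes all 82 tested members had negative log2 fold changes, 71 were called lower and 11 did not pass, and the median was -2.11. Bulk RNA cannot tell fewer cells in a cell cycle stage from less RNA per cell. NDC80, the kinetochore subunit that grips microtubules, had 7.30, 6.43 and 8.45 CPM with the combination, against 59.1, 54.3 and 56.6 CPM with DMSO (log2 fold change -2.94 ± 0.16, edgeR adjusted p = 4.0e-06). Values were tight in both groups and lay far apart. HJURP, the chaperone that loads the centromeric histone CENP-A, averaged 9.86 ± 1.07 CPM with the combination and 69.8 ± 9.28 CPM with DMSO. SKA1, a subunit of the complex that couples kinetochores to shortening microtubules, fell by 2.83 on the log2 scale (± 0.21).

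Spindle and cytokinesis genes moved with the kinetochore. ASPM, which focuses spindle poles, had 9.41, 7.63 and 13.4 CPM with the combination, against 74.3, 38.9 and 101 CPM with DMSO (log2 fold change -2.81 ± 0.42). DMSO 2 was the lowest DMSO library, and the groups still did not overlap. CIT, the citron kinase of the midbody, fell by 2.82 on the log2 scale (± 0.27), and the minus-end motor KIFC1 by 2.82 (± 0.39). CDK1 fell to 24.2 ± 3.65 CPM, against 118 ± 43.7 CPM with DMSO, and its partner CCNB1 to 47.6 ± 4.10 CPM, against 188 ± 72.3 CPM. The transcription factors that drive these genes fell as well: the log2 fold change was -2.17 ± 0.42 for FOXM1 and -2.26 ± 0.43 for MYBL2.

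Part of the regulators of mitotic exit fell. Of 19 genes of the anaphase-promoting complex 6 were called lower. UBE2C, its E2 enzyme, had 19.1, 16.7 and 17.9 CPM with the combination, against 81.3, 80.5 and 80.6 CPM with DMSO (log2 fold change -2.17 ± 0.27). FBXO5, the inhibitor EMI1, had a log2 fold change of -1.93 ± 0.37, while the core subunits ANAPC15 (-0.98 ± 0.16) and ANAPC10 (-0.60 ± 0.12) fell by less. Of 21 condensin and cohesin genes 13 were called lower (6, 6 and 7 without combination 1, 2 and 3, and 6 without DMSO 1 or DMSO 3). NCAPG, a condensin subunit that compacts mitotic chromosomes, averaged 21.2 ± 3.39 CPM with the combination and 118 ± 24.7 CPM with DMSO, and SMC4, its ATPase partner, fell by 1.45 on the log2 scale (± 0.23).

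Promoters of CCNB2, cyclin B2, and NDC80 are shown because both carry the CHR, the element bound by DREAM and by the activating MuvB complexes. CCNB2 was chosen after its values were seen; it averaged 13.1 ± 0.587 CPM with the combination and 68.3 ± 18.7 CPM with DMSO. Capitals mark CHR letters (TTTGAA or TTCGAA, either strand) in both windows and CCAAT letters in CCNB2. The windows are chr15:59104896-59105195 and chr18:2571307-2571606 of GRCh38.p14, both on the plus strand, from RefSeq.
CCNB2: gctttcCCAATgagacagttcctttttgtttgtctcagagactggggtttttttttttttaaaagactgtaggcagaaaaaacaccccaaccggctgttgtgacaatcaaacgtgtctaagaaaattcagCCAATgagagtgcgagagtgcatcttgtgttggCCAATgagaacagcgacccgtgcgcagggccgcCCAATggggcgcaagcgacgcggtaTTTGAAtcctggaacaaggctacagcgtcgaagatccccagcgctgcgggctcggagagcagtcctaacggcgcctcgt
NDC80: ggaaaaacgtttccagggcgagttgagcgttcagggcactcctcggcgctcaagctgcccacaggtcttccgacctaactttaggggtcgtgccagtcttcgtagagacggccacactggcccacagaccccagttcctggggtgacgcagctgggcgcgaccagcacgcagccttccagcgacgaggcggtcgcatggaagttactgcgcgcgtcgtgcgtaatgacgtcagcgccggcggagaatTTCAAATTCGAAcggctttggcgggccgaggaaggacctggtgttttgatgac
The CHR letters begin 29 bases before the CCNB2 start site, behind 4 CCAAT boxes, and in NDC80 a pair of CHR matches lies next to each other at the start site, 1 of them read on the minus strand. CHR letters were in 48 of 69 windows of the 3 mitotic lists (69.6%), in 20.4% of windows of genes called lower, in 10.0% of those called higher and in 11.3% of all tested. For CCAAT on either strand the shares were 73.9% of the mitotic windows, 42.5% of genes called lower, 34.7% of genes called higher and 36.4% of all tested.

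**Figure D3:**
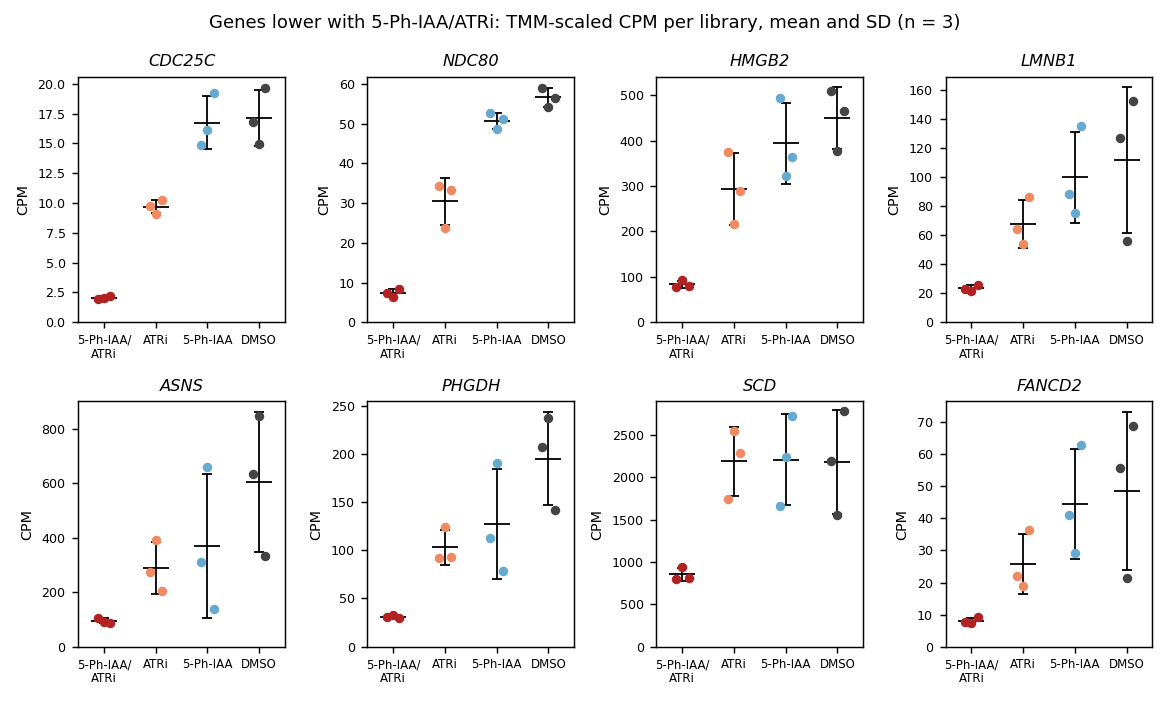
TMM-scaled CPM of 8 genes called lower (vertical axes, each from 0) in the 4 groups, with a point for each library and the mean ± SD as a bar (n = 3). In each panel the combination libraries lie below all DMSO libraries; DMSO libraries range from 333 to 846 CPM for ASNS and from 21.3 to 68.9 CPM for FANCD2, a Fanconi gene shown after its values were seen.

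Part of the DNA replication genes fell. Of 48 origin and replisome genes 23 were called lower and 47 had negative values, with a median log2 fold change of -1.27. The count was 10, 9 and 11 without combination 1, 2 and 3, 10 without DMSO 1 or DMSO 3 and 37 without DMSO 2. TICRR, the treslin protein that helps fire origins, had 4.51, 3.16 and 4.69 CPM with the combination, against 27, 14 and 35.2 CPM with DMSO (log2 fold change -2.62 ± 0.41). CDC45, of the replicative helicase, averaged 4.29 ± 0.900 CPM with the combination and 20.8 ± 10.2 CPM with DMSO. DMSO 2 was again the lowest of its group for both genes, and neither gene's groups overlapped. DBF4, the activator of CDC7 kinase (log2 fold change -1.15 ± 0.20), and POLE, the leading strand polymerase (-1.70 ± 0.31), fell.

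CDT1, the licensing factor that loads the helicase, had 13.8, 11.4 and 16.4 CPM with the combination, against 58.8, 25.1 and 76.3 CPM with DMSO (log2 fold change -1.95 ± 0.37). Its promoter (chr16:88803539-88803838, plus strand, GRCh38.p14, RefSeq) is shown with its E2F match in capitals as an example of the list, and was chosen after the values were seen.
CDT1: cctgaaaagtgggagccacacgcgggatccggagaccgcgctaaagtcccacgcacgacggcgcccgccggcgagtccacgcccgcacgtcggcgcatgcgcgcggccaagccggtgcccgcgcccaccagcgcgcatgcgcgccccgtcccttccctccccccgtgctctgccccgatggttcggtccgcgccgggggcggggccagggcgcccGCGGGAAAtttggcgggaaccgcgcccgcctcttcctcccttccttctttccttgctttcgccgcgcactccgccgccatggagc
E2F letters (TTTGGCGC, TTTCCCGC, TTTCGCGC or TTTGCCGC, either strand) were in 18 of 40 windows of origin and replisome genes (45.0%), in 8.52% of windows of genes called lower, in 4.71% of those called higher and in 5.18% of all tested. CHR letters were in 5.00% of the origin and replisome windows.

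Enzymes that supply DNA precursors changed in both directions. RRM2, the ribonucleotide reductase subunit that ATR and CHK1 are known to protect, had 35.1, 33.5 and 48.5 CPM with the combination, against 250, 87.4 and 337 CPM with DMSO (log2 fold change -2.53 ± 0.50). The groups did not overlap, and DMSO 2 was the lowest DMSO library. TK1, thymidine kinase (log2 fold change -1.87 ± 0.32), and DUT, the dUTPase (-0.82 ± 0.15), were lower too. Of the 15 genes of this list 5 were called lower and 3 higher (0 higher without combination 1 or 2 or DMSO 1 or 2, and 1 without combination 3 or DMSO 3).

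Repair genes are given by pathway. Of 33 homologous recombination and Fanconi genes 22 were called lower, with a median log2 fold change of -1.51 (11, 11 and 13 without combination 1, 2 and 3, and 11 without DMSO 1 or DMSO 3). FANCA, of the Fanconi core complex, had 22.1, 16.9 and 17.9 CPM with the combination, against 81.7, 50.8 and 96.1 CPM with DMSO (log2 fold change -2.01 ± 0.32). FANCI, of the pair that is ubiquitinated at crosslinks, had a log2 fold change of -2.07 ± 0.34, RAD51AP1, which assists strand invasion, one of -2.32 ± 0.36, and the nuclease subunit EME1 one of -2.26 ± 0.35. The groups did not overlap for any of these genes.

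End joining and excision repair genes had smaller shares of calls, and the difference between these lists and recombination was not tested. Of 23 end joining and break response genes 4 were called lower, with a median log2 fold change of -0.26 (2 without combination 3 or DMSO 1). POLQ, the polymerase of microhomology-mediated joining, had 4.37, 3.02 and 5.18 CPM with the combination, against 27.0, 16.1 and 29.3 CPM with DMSO (log2 fold change -2.53 ± 0.32). PRKDC, which encodes DNA-PKcs, had 255, 220 and 337 CPM with the combination, against 431, 167 and 550 CPM with DMSO, and the groups overlapped (log2 fold change -0.50 ± 0.44, edgeR adjusted p = 0.52). Of 36 translesion, nucleotide and base excision genes 3 were called higher, the p53 targets XPC, POLH and DDB2, and 4 lower (2 lower without combination 3 or DMSO 1), with a median of -0.10. Of 15 fork protection and ATR signalling genes 4 were called lower (2 without DMSO 1, DMSO 3 or any combination library). RHNO1, which joins the clamp that activates ATR, had 8.70, 9.08 and 9.30 CPM with the combination, against 20.9, 25.8 and 24.1 CPM with DMSO (log2 fold change -1.39 ± 0.12), and ZRANB3, a fork remodeller, fell by 1.62 on the log2 scale (± 0.23).

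Histone genes were split by class. Replication-dependent histone RNAs normally end in a stem-loop without a poly(A) tail, so poly(A) selection records the polyadenylated part. Of 44 such genes 23 were tested and 9 were called higher, and the median log2 fold change was 1.37. H2BC21 had 14.1, 13.5 and 13.4 CPM with the combination, against 2.75, 4.09 and 3.09 CPM with DMSO (log2 fold change 2.04 ± 0.20, edgeR adjusted p = 0.00011). H2BC12 rose by 1.37 ± 0.15, H2BC4 by 2.10 ± 0.31 and H2BC11 by 2.14 ± 0.37 on the log2 scale. These genes have near-identical copies, so the division of reads among them is uncertain.

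Of 17 other histone variants and chaperones 8 were called lower (5 without DMSO 1). H2AZ1, the variant at promoters, had 218, 218 and 207 CPM with the combination, against 623, 479 and 584 CPM with DMSO (log2 fold change -1.39 ± 0.15). H2AX, phosphorylated at DNA breaks, fell by 1.19 on the log2 scale (± 0.21). HMGB2, a chromatin protein that bends DNA, had 78.5, 92.4 and 79.8 CPM with the combination, against 510, 376 and 465 CPM with DMSO (log2 fold change -2.43 ± 0.23). The lamins diverged: LMNB1 had 23.0, 21.2 and 25.8 CPM with the combination, against 127, 55.8 and 153 CPM with DMSO (log2 fold change -2.26 ± 0.35), while LMNA rose by 0.74 ± 0.13.

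Part of the genes of amino acid supply fell, in lists that include targets of ATF4, the factor of the integrated stress response. Over 3 lists of ATF4, serine and one-carbon, and aminoacyl-tRNA synthetase genes, 20 of 53 tested members were called lower, 12 of them in all 6 refits, 33 did not pass, and the median log2 fold change was -0.74. ASNS, asparagine synthetase, had 105, 91.2 and 87.5 CPM with the combination, against 632, 846 and 333 CPM with DMSO (log2 fold change -2.67 ± 0.51, edgeR adjusted p = 0.0059). The combination libraries were even, and the DMSO libraries differed by more than 2-fold, with DMSO 2 at the top. PHGDH, the entry enzyme of serine synthesis, had 31.2, 32.6 and 29.7 CPM with the combination, against 207, 237 and 142 CPM with DMSO (log2 fold change -2.65 ± 0.30). PSAT1, the next enzyme of that route, fell by 2.07 on the log2 scale (± 0.39) and the mitochondrial folate enzyme MTHFD2 by 1.14 (± 0.21).

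Among transporters, SLC1A4, which carries alanine and serine, was one of the largest falls, at 2.33, 2.25 and 2.63 CPM with the combination, against 14.2, 22.6 and 16.2 CPM with DMSO (log2 fold change -2.88 ± 0.49). Of 20 cytosolic aminoacyl-tRNA synthetase genes 7 were called lower, led by AARS1 for alanine, at 119, 126 and 121 CPM with the combination, against 414, 556 and 344 CPM with DMSO (log2 fold change -1.85 ± 0.30). Among the others MARS1 (log2 fold change -0.99 ± 0.18), TARS1 (-0.88 ± 0.17) and LARS1 (-0.66 ± 0.12) fell by less. Of 19 ATF4 response genes 6 were called lower (3 without combination 2), SLC7A11 among them, and all 19 had negative values. Of 14 serine and one-carbon genes 7 were (4 without combination 1, combination 2, DMSO 1 or DMSO 3). In the unfolded protein response list edgeR called 0 of 19 genes, DESeq2 0, and 1 had an unadjusted p under 0.05, with a median log2 fold change of -0.12.

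The ASNS promoter (chr7:97872359-97872658, minus strand, GRCh38.p14, RefSeq) is shown with its amino acid response element, TGATGNAA, in capitals. This motif was chosen after values were seen.
ASNS: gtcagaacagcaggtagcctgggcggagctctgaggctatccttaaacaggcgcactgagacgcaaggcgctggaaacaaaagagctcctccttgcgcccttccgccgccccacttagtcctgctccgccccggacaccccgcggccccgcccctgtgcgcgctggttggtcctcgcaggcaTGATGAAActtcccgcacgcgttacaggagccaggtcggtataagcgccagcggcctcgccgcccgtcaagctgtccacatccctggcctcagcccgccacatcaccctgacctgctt
The letters were found on either strand in 4 of 16 windows of ATF4 response genes (25%) and in 6 of 16 windows of tRNA synthetase genes (37.5%). They were in 1 of 11 windows of serine and one-carbon genes (9.09%) and in 1.69% of windows of all tested genes. The shares were 1.86% for genes called higher and 3.12% for genes called lower.

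A few lipid synthesis genes fell. Of 28 sterol and fatty acid genes 4 were called lower, with a median log2 fold change of -0.22. This share was 14.3%, beside 6.89% of all genes tested. SCD, the desaturase that makes monounsaturated fatty acids, had 803, 946 and 814 CPM with the combination, against 2196, 1560 and 2789 CPM with DMSO (log2 fold change -1.35 ± 0.24), and its groups did not overlap. ACACA, the acetyl-CoA carboxylase (log2 fold change -0.65 ± 0.12), and SREBF1, a lipogenic transcription factor (-0.88 ± 0.17), fell too. The mean of SCD was 2192 CPM with ATRi and 2211 CPM with 5-Ph-IAA, against 2182 CPM with DMSO.

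Part of the interferon response genes rose. Of 34 tested members 17 were called higher (8 without combination 2, DMSO 1 or DMSO 3), and the median log2 fold change was 0.69. OASL, a nucleic acid sensor homologue, had 18.3, 33.1 and 18.9 CPM with the combination, against 3.90, 5.89 and 3.83 CPM with DMSO (log2 fold change 2.37 ± 0.29, edgeR adjusted p = 0.00049). TLR3, the endosomal receptor of double-stranded RNA and a known p53 target, rose by 1.97 ± 0.31, OAS1 by 2.07 ± 0.35 and IFIT3 by 1.82 ± 0.30 on the log2 scale. IFIT1, chosen after its values were seen, had 26.5, 76.0 and 35.4 CPM with the combination, against 11.2, 12.8 and 12.4 CPM with DMSO. Combination 2 was the highest library for OASL and IFIT1, and all combination libraries lay above all DMSO libraries. MX1 and IRF9, also chosen after their values were seen, had log2 fold changes of -0.15 ± 0.22 and 0.26 ± 0.38 and did not pass. Of antigen presentation genes TAP1, a peptide transporter, was called, at 101, 112 and 109 CPM with the combination, against 57.3, 49.1 and 57.9 CPM with DMSO (log2 fold change 0.97 ± 0.11).

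The IFIT1 promoter (chr10:89392373-89392672, plus strand, GRCh38.p14, RefSeq) shows a pair of interferon response elements, read on the minus strand as GAAA, any 2 bases and GAAA, in capitals. This motif was also chosen after values were seen.
IFIT1: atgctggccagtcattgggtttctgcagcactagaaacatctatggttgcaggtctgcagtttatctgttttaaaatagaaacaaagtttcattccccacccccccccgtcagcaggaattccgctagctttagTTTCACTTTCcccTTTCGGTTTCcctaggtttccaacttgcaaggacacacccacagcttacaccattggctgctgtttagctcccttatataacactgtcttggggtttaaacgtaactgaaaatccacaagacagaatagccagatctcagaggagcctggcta
The letters were in 18 of 25 windows of the interferon list (72.0%), in 5.09% of windows of genes called higher, in 2.29% of those called lower and in 2.77% of all tested.

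**Figure D4:**
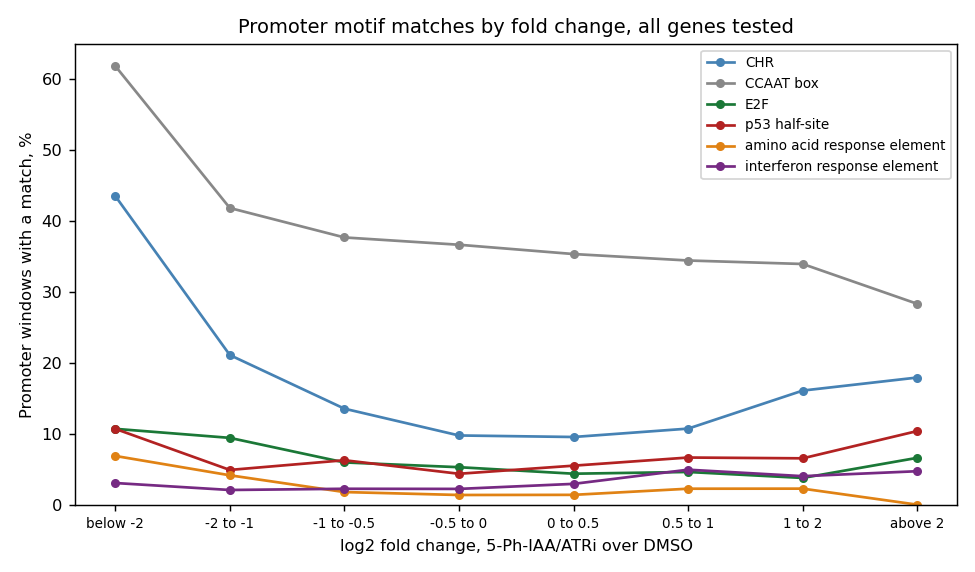
Share of promoter windows with a match (vertical axis, %) in 8 ranges of log2 fold change of the combination over DMSO (horizontal axis), for 6 motifs over 12037 windows. CHR letters were in 43.5% of the 131 windows below -2 and in 9.54% of those between 0 and 0.5; p53 half-sites were in 10.7% of windows below -2 and in 10.4% of the 106 above 2.

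Some immediate early and signalling genes changed. Of 23 immediate early genes 6 were called higher, among them the orphan nuclear receptors NR4A1 and NR4A3, and 1 lower. NR4A3 had 6.33, 5.12 and 6.78 CPM with the combination, against 0.278, 0.670 and 0.482 CPM with DMSO (log2 fold change 3.67 ± 0.32). NR4A1 averaged 36.7 ± 0.683 CPM with the combination and 9.85 ± 0.370 CPM with DMSO. KLF2, a transcription factor of quiescent cells, was the lower one and fell by 0.97 on the log2 scale (± 0.13). Of 27 kinases and phosphatases of JNK and p38 signalling 3 were called higher and 3 lower, 11.1% each. Over all genes tested the shares were 6.24% higher and 6.89% lower. The median log2 fold change of this list was 0.04. Without DMSO 1 or any combination library 2 were called higher and 1 lower, and without DMSO 3 the counts were 2 and 3. DUSP14, a phosphatase, rose by 1.40 ± 0.16 on the log2 scale and MAP2K3, a kinase that activates p38, by 0.72 ± 0.12, while MAP3K5, the upstream kinase ASK1, fell by 0.80 (± 0.14).

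CCN1 and CCN2, secreted matricellular proteins and targets of YAP, rose. CCN1 had 77.7, 63.4 and 83.3 CPM with the combination, against 12.4, 16.1 and 9.24 CPM with DMSO (log2 fold change 2.57 ± 0.22), and CCN2 rose by 2.54 ± 0.35. ACTA2, smooth muscle actin and a known p53 target, rose by 1.91 ± 0.21, and LATS2, a kinase that restrains YAP, by 0.93 ± 0.14. Of the 22 YAP and SRF targets 5 were called higher and 1 lower (0 lower without combination 3 or DMSO 1). CCN1 averaged 16.8 CPM with ATRi and 12.8 CPM with 5-Ph-IAA, against 12.6 CPM with DMSO.

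Some secreted and surface regulators rose. SULF2, the sulfatase that trims heparan sulfate, had 69.8, 65.7 and 70.5 CPM with the combination, against 12.2, 10.8 and 11.8 CPM with DMSO (log2 fold change 2.57 ± 0.11, edgeR adjusted p = 9.3e-07). DKK1, an inhibitor of Wnt signalling, averaged 338 ± 15.8 CPM with the combination and 109 ± 11.1 CPM with DMSO. TCF7L2, a Wnt transcription factor, fell by 0.85 on the log2 scale (± 0.17). In the Wnt list 2 of 18 tested genes were called higher and 2 lower, 11.1% each, beside 6.24% and 6.89% of all genes. Its median log2 fold change was 0.13. Without combination 1 or 3 the counts were 1 and 1, without DMSO 1 or 2 they were 1 and 2, and without DMSO 3 they were 2 and 1. LAMA3, a laminin chain of epithelial basement membrane, rose by 1.78 ± 0.21, while the chain LAMB1 fell by 0.76 on the log2 scale (± 0.11). PTAFR, the receptor of platelet-activating factor, rose to 29.5 ± 3.06 CPM, against 4.29 ± 0.414 CPM with DMSO. Of 14 tested EGF receptor family members, ligands and regulators 2 were called higher (1 without DMSO 1, DMSO 3 or any combination library) and 4 lower (2, 2 and 1 without combination 1, 2 and 3, and 1 and 2 without DMSO 1 and 2), with a median log2 fold change of -0.21. The ErbB ligand NRG1 rose to 2.16 ± 0.236 CPM, against 0.362 ± 0.0586 CPM with DMSO, and SPRY4, an inhibitor of receptor signalling, fell to 71.2 ± 6.58 CPM, against 159 ± 31.7 CPM. In the TGF-beta and BMP list 6 of 20 were called higher (3 without combination 2, combination 3 or DMSO 1), among them LTBP2 (log2 fold change 1.31 ± 0.25), which binds the matrix, and the signal transducer SMAD3 (0.66 ± 0.13). In the NF-kB and secretory list 6 of 25 were called higher (3 without combination 1, combination 2 or DMSO 1) and 1 lower (0 without any of the 6 libraries), among them the collagenase MMP1, at 1.94 ± 0.261 CPM with the combination and 0.0834 ± 0.0456 CPM with DMSO, and the colony-stimulating factor CSF1 (log2 fold change 0.81 ± 0.15).

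Epithelial genes rose in part. Of 19 tested members of the epithelial list 6 were called higher (3 without any combination library or DMSO 3, and 2 without DMSO 1), with a median log2 fold change of 0.18. CEACAM1, a cell adhesion molecule of the colon epithelium, had 9.38, 9.92 and 10.2 CPM with the combination, against 0.773, 0.529 and 0.680 CPM with DMSO (log2 fold change 3.88 ± 0.23). KRT8, the keratin of simple epithelia, had 4541, 4772 and 5578 CPM with the combination, against 1845, 2198 and 1782 CPM with DMSO (log2 fold change 1.35 ± 0.14). Its partners had log2 fold changes of 1.04 ± 0.26 for KRT18 (edgeR adjusted p = 0.022, lost without any library but DMSO 2) and 0.89 ± 0.20 for KRT19 (edgeR adjusted p = 0.012, lost without DMSO 1). Keratin genes have many processed pseudogenes, which makes their counts uncertain. The general epithelial markers EPCAM and CDH1 did not pass, with log2 fold changes of -0.35 and 0.06.

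Some redox, lysosome and survival genes changed. AKR1B10, an aldo-keto reductase, had 2.76, 3.20 and 2.88 CPM with the combination, against 0.278, 0.141 and 0.425 CPM with DMSO (log2 fold change 3.35 ± 0.39). Of the NRF2 list HMOX1, heme oxygenase, rose by 1.08 ± 0.13, and NQO1 fell by 0.56 on the log2 scale (± 0.12). Lysosomal enzymes rose modestly, with FUCA1, a p53 target, at 1.04 ± 0.14, MAN2B1 at 0.58 ± 0.10 and NEU1 at 0.55 ± 0.11 on the log2 scale. In the survival list BAG3, a cochaperone of selective autophagy, averaged 155 ± 0.810 CPM with the combination and 74.8 ± 13.3 CPM with DMSO. STMN1, which destabilises microtubules, had 121, 135 and 110 CPM with the combination, against 429, 344 and 407 CPM with DMSO (log2 fold change -1.69 ± 0.17).

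Ribosomal and respiratory chain genes held few calls. Of 60 ribosomal protein genes 1 was called higher, RPS27L, a p53 target (log2 fold change 1.62 ± 0.28), and the median was 0.03. Of 40 nuclear genes of oxidative phosphorylation 1 was called (0 without any of the 6 libraries), with a median of 0.11. The 13 mitochondrially encoded genes had positive values with a median of 0.44, and edgeR called 0, DESeq2 0, and 0 had an unadjusted p under 0.05. The mitochondrial share of counts was 10.7% to 13.9% with the combination and 6.63% to 14.9% with DMSO (2-sided exact permutation p = 0.5, n = 3 per group). Of 31 proteasome genes 2 were called higher (1 without any of the 6 libraries), among them PSMC4 (0.71 ± 0.11). This share, 6.45%, was near the 6.24% of all genes tested. Positive values were found in 29 of the 31, with a median of 0.25. Higher combination libraries without overlap were found in 18 of the 31, beside 16.4% of all genes. Of 34 ribosome biogenesis genes 7 were called higher and 27 had positive values (calls were 3, 3 and 1 without combination 1, 2 and 3, and 2, 4 and 4 without DMSO 1, 2 and 3).

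**Figure D5:**
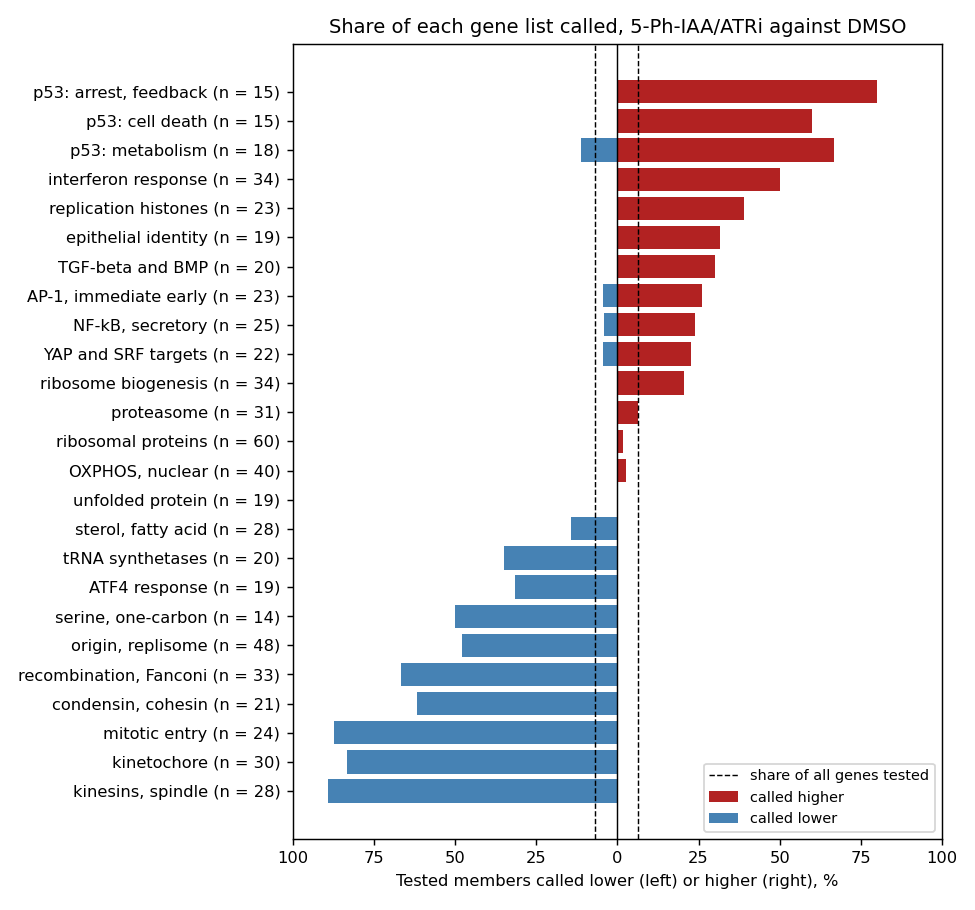
Share of the tested members of 25 gene lists called lower (blue, to the left) or higher (red, to the right) with the combination, in percent, with the number tested beside each name. Dashed lines mark the shares over all genes tested, 6.89% lower and 6.24% higher; the 3 mitotic lists reach 83.3% to 89.3% lower.

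Values with the single compounds are given for some of these genes. The comparisons share libraries, so their values are set side by side only. Against DMSO, 1 gene was called higher with 5-Ph-IAA alone (0.00554%) and 12 with ATRi alone (0.0665%). The combination called 294 genes higher (1.63%) and 340 lower (1.88%) against ATRi alone, and 790 higher (4.38%) and 909 lower (5.04%) against 5-Ph-IAA alone. CDKN1A averaged 2062 ± 44.5 CPM with the combination, 757 CPM with ATRi, 435 CPM with 5-Ph-IAA and 218 CPM with DMSO. Its log2 fold change was 1.45 over ATRi (edgeR adjusted p = 0.0026) and 2.24 over 5-Ph-IAA (adjusted p = 6.8e-05). For NDC80 the means were 7.39, 30.5, 50.8 and 56.7 CPM in the same order, with a log2 fold change of -2.04 over ATRi (edgeR adjusted p = 0.00022).

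Of the 1126 genes called higher against DMSO, 287 were also called higher against ATRi, and of the 1244 called lower 334 were. For the larger part of the genes called against DMSO the difference from ATRi did not pass. ASNS averaged 94.6 CPM with the combination, 290 CPM with ATRi, 369 CPM with 5-Ph-IAA and 604 CPM with DMSO, with a log2 fold change of -1.62 over ATRi (edgeR adjusted p = 0.1). For MTHFD2 the log2 fold change over ATRi was -0.46 (edgeR adjusted p = 0.29), and for H2BC12 it was 0.47 (adjusted p = 0.11). Others passed against each single compound: CEACAM1 had log2 fold changes of 2.56 over ATRi and 2.89 over 5-Ph-IAA, NR4A1 of 1.65 and 1.77, SCD of -1.36 and -1.37, and HMGB2 of -1.81 and -2.24 in that order.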

How the data were processed

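The authors deposited estimated counts per gene for 62700 genes in 12 libraries, with Salmon 1.10.1 among the tools in the submitters' processing notes. Alignment tools named there are STAR 2.7.9a and SAMtools 1.17, trimming and quality tools cutadapt 3.4, Trim Galore 0.6.7 and FastQC 0.12.1, and the build is GRCh38.p14. No source used here gives the annotation release or the strand setting, so antisense and overlapping genes are uncertain. Of the deposited values, 13.6% were not whole, 6.93% by more than 0.01, and all were rounded.

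Genes were filtered with filterByExpr (minimum count 10, total 15), which left 18049, and scaled by TMM. edgeR 4.0.16 (R 4.3.3, limma 3.58.1) fitted all 12 libraries with 1 mean per group, and the quasi-likelihood F test was adjusted by Benjamini-Hochberg with a threshold of 0.05. The biological coefficient of variation was 0.214. On simulated data with 17742 genes edgeR recovered 41% of 2-fold and 89% of 4-fold changes, with 9 false calls, and DESeq2 57% and 93%, with 41. The genes altered in the simulation were a small part of these and lay above a count minimum. Every pair of libraries in a group differed by more than counting noise.

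Members and lists were chosen with earlier results of these data known. Named genes are the 15 largest changes per direction (at least 5 CPM in the higher group, no overlap), up to 4 members per list with the smallest adjusted p, 6 with the highest CPM per direction, and a fixed set; a few of them are not reported here. Alternatives were other scalings and filters, DESeq2 1.42.0, limma-voom, a 2-fold minimum, the 6 libraries alone, a mitochondrial covariate, a block for the set number, and refits without each library in turn. Totals, mitochondrial shares and detected genes were compared by exact permutation, whose smallest p is 0.1 for 3 against 3. Promoter sequences and positions are from RefSeq.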

Additional observations from a re-analysis of the deposited data

How the results depend on the processing

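Counts of calls were within 1.5 times the main ones, higher and lower, under DESeq2 size factors (1133 and 1233), upper quartile factors (1200 and 1175), total counts (989 and 1317), no count filter (826 and 1096), a stricter filter (1086 and 1239), DESeq2 (1533 and 1738), limma-voom (1167 and 1103) and the 6 libraries alone (853 and 909). They moved further with a 2-fold minimum (98 and 89), which asks for larger changes, with the mitochondrial share as a covariate (3183 and 3266) and with the replicate block (2109 and 2460); the cause of the last 2 was not tested. Leaving out each library gave 570 to 1066 higher and 662 to 1310 lower genes. The block uses the set numbers, and whether same-numbered libraries form pairs is not settled. Deviations of same-numbered combination and DMSO libraries correlated at -0.08, 0.27 and 0.52. Combination 1 correlated best with DMSO 2, and combination 2 and 3 with the DMSO library of their own number. Libraries with a single compound were not part of this check. Genes that did not pass reversed their log2 fold change in 4 refits: PRKDC (0.10) and MALAT1 (-0.25) with the mitochondrial covariate, and MALAT1 without combination 1 (-0.011) or DMSO 3 (-0.28). Leaving out each library gave a log2 fold change of MALAT1 between -0.28 and 1.34. In the simulation edgeR recovered 41% of 2-fold changes, so such changes of single genes can be missed at this number of libraries. The simulation altered a smaller share of genes than was called here, all above a count minimum. The share missed in these data is therefore not known.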

Other observations

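A row named 7SK, the small nuclear RNA that holds the elongation factor P-TEFb inactive, had 10.9, 15.1 and 3.80 CPM with the combination and no counts in any DMSO library. Against a floor of 3 counts per library its mean was at least 105-fold higher. 7SK is transcribed by RNA polymerase III without a poly(A) tail and has many copies in the genome, so its level in poly(A) libraries is uncertain. More genes were detected per library with the combination, 28562 ± 768 against 26555 ± 916 with DMSO (SD, n = 3; 2-sided exact permutation p = 0.1, the smallest possible).

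Calls differed in direction between gene classes. Of 13869 protein-coding genes 6.75% were called higher and 8.34% lower, and of 2399 long noncoding RNA genes 4.96% and 2.33%. Among 2108 genes below 0.5 CPM 6.26% were called higher and 1.09% lower, while among 3517 genes between 5 and 20 CPM the shares were 6.77% and 11.1%. These shares were not tested against each other.

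CD14, a monocyte marker, was called higher at under 1 CPM in every library (log2 fold change 2.42 ± 0.37). Its highest level was 0.751 CPM with the combination and 0.141 CPM with DMSO, and PTPRC, the pan-leukocyte marker, had 16 counts over all 12 libraries.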
